A study of Mus musculus with 16 samples.

Results

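The liver sinusoid is lined by a fenestrated endothelium that filters plasma toward the hepatocytes and clears waste molecules from the blood by endocytosis. The report follows 10 genes that mark these cells (Stab1, Stab2, Lyve1, Clec4g, Fcgr2b, Kdr, Pecam1, Cdh5, Oit3 and Gpr182), read as a gauge of the endothelial share of RNA in whole liver. They were set by gene symbol, with no threshold on a measured value, though with earlier results of these data known, and make up 10 of 53801 gene identifiers in the count table. All 10 passed the filter on low counts that left 14351 genes for testing. Read counts per liver were 102, for Lyve1 in 1 liver, to 2800, for Stab2 in another.

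RNA was sequenced from 16 mouse livers in 4 groups of 4. The groups were high-fat-fed mice with a liver-specific knockout of Degs1, high-fat-fed controls, knockouts on normal chow, and controls on normal chow. Degs1 encodes dihydroceramide desaturase, which makes ceramide from dihydroceramide. Every liver carries a separate animal number in its label. The sources used here give no strain, age, sex, length of feeding or Cre line behind the knockout, and no genotype of the controls beyond that word. RNA was taken from pieces of whole tissue, so the endothelium is only a small part of what was measured and no cells were sorted. In such bulk RNA, fewer cells of a type and less RNA per cell cannot be told apart.

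Library totals were 11938596 to 23250885 counts, so that 3 counts corresponded to 0.129 to 0.251 CPM, the usual depth-scaled read count. CPM here use the TMM-scaled library size, which sets the bulk of genes level between livers. Degs1 had 26.1 to 41.6 CPM in high-fat knockouts, against 60.2 to 101 CPM in high-fat controls, and 35.9 to 39.3 CPM in chow knockouts, against 80.4 to 87.9 CPM in chow controls. Its residual level in the knockouts was therefore measurable in every library. Libraries differed in their share of counts on intronic and unconfirmed transcripts, taken as a mark of unspliced RNA. This share was 0.162 to 0.191% in high-fat knockouts, 0.0218 to 0.164% in high-fat controls, 0.0463 to 0.0878% in chow knockouts and 0.0263 to 0.0411% in chow controls. High-fat knockouts thus lay above all chow knockouts, and overlapped high-fat controls only through high-fat control 1. A model that includes this share therefore cannot fully tell it apart from those group differences, and a call lost there may be lost for either reason. High-fat control 3 had the lowest unspliced share of all 16 livers and chow knockout 1 the lowest total count, and results that rest on either are given without it too.

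The 10 genes fall into 4 roles. Stab1 and Stab2 are the stabilins, large scavenger receptors through which sinusoidal cells take up modified proteins, lipoproteins and, for Stab2, hyaluronan. Lyve1 is a hyaluronan receptor shared with lymphatic endothelium, Clec4g is the C-type lectin LSECtin, and Fcgr2b is the inhibitory Fc receptor that clears immune complexes and is also carried by B cells and macrophages. Kdr is the main signalling receptor for VEGF-A. Pecam1 and Cdh5 (VE-cadherin) hold endothelial cells together at their junctions in all vessels. Gpr182 is an atypical chemokine receptor of endothelium, and Oit3 is a zona-pellucida-domain protein that serves as a sinusoidal marker.

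Their loci in GRCm38 are all annotated protein-coding genes. Stab1 (ENSMUSG00000042286) lies at chr14:31139013-31168641, Stab2 (ENSMUSG00000035459) at chr10:86841198-87008025, and Lyve1 (ENSMUSG00000030787) at chr7:110850607-110863239, all on the minus strand. Clec4g (ENSMUSG00000074491, chr8:3707064-3720651), Fcgr2b (ENSMUSG00000026656, chr1:170958617-170976547) and Kdr (ENSMUSG00000062960, chr5:75932827-75978458) are also on the minus strand, as are Pecam1 (ENSMUSG00000020717, chr11:106654217-106750628), Oit3 (ENSMUSG00000009654, chr10:59422958-59441778) and Gpr182 (ENSMUSG00000058396, chr10:127747276-127751732). Cdh5 (ENSMUSG00000031871) lies at chr8:104101625-104144511 on the plus strand. Exons of Stab1 overlap those of Nt5dc2 on the other strand by 112 bases, and exons of Gpr182 overlap those of Zbtb39 by 74 bases. The sources used here do not say how counting treated strand, so reads in these stretches cannot be assigned with certainty.

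The promoters of 4 members are shown because Stab2, Kdr and Stab1 had the highest CPM of the members and Clec4g the highest level per length, and because ETS-family factors are known to bind endothelial promoters. Each run is 300 bases, from 250 before to 50 after the start of the gene, 5′ to 3′ along the gene (RefSeq, GRCm38.p6), and 5 of the 10 members were in that table. Capitals mark the letters CAGGAA or CCGGAA, a short ETS core, read on either strand.
Stab1, chr14:31168592-31168891, minus strand: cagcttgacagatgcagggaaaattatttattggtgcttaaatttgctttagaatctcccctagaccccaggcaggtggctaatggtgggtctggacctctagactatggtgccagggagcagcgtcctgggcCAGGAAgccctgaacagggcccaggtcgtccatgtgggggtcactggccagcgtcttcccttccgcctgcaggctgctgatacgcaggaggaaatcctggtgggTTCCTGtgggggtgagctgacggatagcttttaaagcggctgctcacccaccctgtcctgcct
Stab2, chr10:87007893-87008192, minus strand: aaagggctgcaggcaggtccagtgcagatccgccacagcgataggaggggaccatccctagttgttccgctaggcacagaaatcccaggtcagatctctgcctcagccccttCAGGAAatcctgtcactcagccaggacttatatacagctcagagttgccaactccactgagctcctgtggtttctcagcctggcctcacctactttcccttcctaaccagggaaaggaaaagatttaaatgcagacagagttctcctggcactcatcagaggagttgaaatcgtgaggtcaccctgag
Kdr, chr5:75978406-75978705, minus strand: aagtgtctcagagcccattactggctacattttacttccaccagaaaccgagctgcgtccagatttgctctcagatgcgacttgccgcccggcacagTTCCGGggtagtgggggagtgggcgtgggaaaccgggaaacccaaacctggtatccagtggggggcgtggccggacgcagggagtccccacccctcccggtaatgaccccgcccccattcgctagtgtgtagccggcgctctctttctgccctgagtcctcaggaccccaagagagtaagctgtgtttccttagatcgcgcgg
Clec4g, chr8:3720602-3720901, minus strand: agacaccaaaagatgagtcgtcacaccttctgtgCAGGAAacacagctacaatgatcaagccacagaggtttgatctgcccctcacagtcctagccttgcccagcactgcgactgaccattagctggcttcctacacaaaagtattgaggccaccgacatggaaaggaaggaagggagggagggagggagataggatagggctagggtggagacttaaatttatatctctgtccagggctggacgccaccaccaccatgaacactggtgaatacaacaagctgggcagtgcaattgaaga
The match lay 138 bases before the start in Stab2, 216 before it in Clec4g and 153 before it in Kdr, where it is on the other strand and so reads TTCCGG. Stab1 held 2 matches, 117 bases before the start and, on the other strand, 13 before it. A match was found in 4 of 5 member promoters, the exception being Fcgr2b, and in 41.4% of 32851 promoters of the same length. The GATA letters AGATAA or TGATAA, on either strand, were in 0 of 5, against 18.6% of all promoters. These counts describe letters in a short window and not binding.

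CPM divided by the kilobases of exon (CPM per kb) allow levels to be set between genes. Clec4g was the highest on that scale, at 17.96 ± 5.19 CPM per kb (SD, n = 16 livers), followed by Stab2 at 14.8 ± 2.17 and Oit3 at 13.7 ± 2.16. Kdr, Cdh5 and Stab1 formed a middle range, with means of 10.3, 9.23 and 8.68 CPM per kb. Fcgr2b followed at 6.26 CPM per kb, and Pecam1, Gpr182 and Lyve1 were lowest, at 4.38, 3.98 and 3.84 CPM per kb. Several neighbours in this order did not separate: Stab2 exceeded Oit3 in 10 of 16 livers, Cdh5 exceeded Stab1 in 10 of 16, and Gpr182 exceeded Lyve1 in 10 of 16. Oit3 exceeded Kdr, and Fcgr2b exceeded Pecam1, in 16 of 16 livers. The highest liver was 1.75 times the lowest for Oit3 and 3.02 times for Clec4g, and the lowest liver was chow knockout 1 for 7 of the 10 genes.

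On the TMM scale, the summed level of the 10 genes was nearly flat over the groups. It was 530.9 ± 52.7 CPM in high-fat knockouts, 535.8 ± 64.7 CPM in high-fat controls, 504.0 ± 110 CPM in chow knockouts and 521.7 ± 68.9 CPM in chow controls (SD, n = 4 each). Single livers ran from 459.4 to 575.4, 442.5 to 588.8, 349.3 to 603.1 and 448.5 to 612.4 CPM in the same order of groups. The ranges of all 4 groups overlapped, and the lowest sum was that of chow knockout 1. This flatness depends on the scaling, since TMM factors were 1.11 to 1.21 in high-fat knockouts and 0.859 to 0.963 in chow knockouts. With total counts in place of these factors, the members' median log2 fold change for diet in knockouts was 0.27. The fold changes of all genes then shifted by a median of 0.34.

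**Figure D1:**
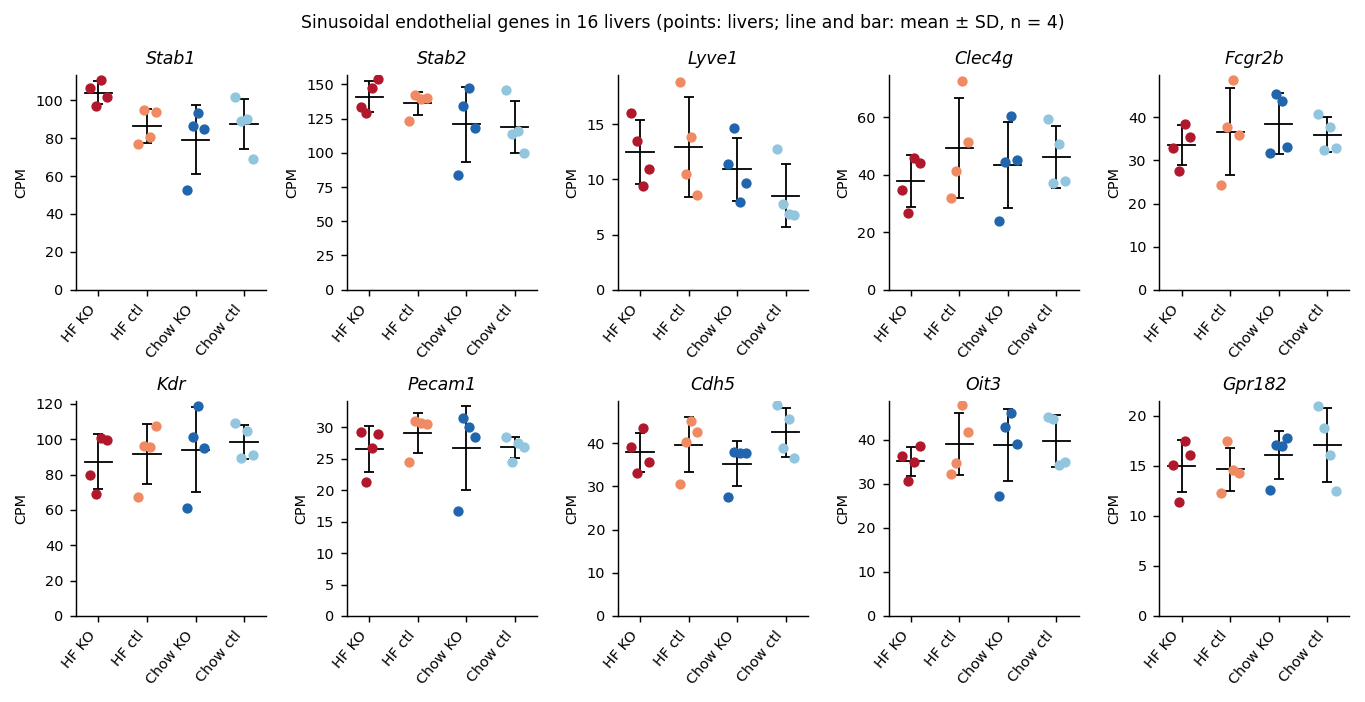
CPM of each of the 10 genes (y axes, from 0) in high-fat knockouts (HF KO), high-fat controls (HF ctl), chow knockouts (Chow KO) and chow controls (Chow ctl), with a point for each liver and lines and bars for the mean ± SD of 4 livers. Stab1 is the only gene whose 4 high-fat knockout livers, at 97.1 to 110.7 CPM, lie above every high-fat control and every chow knockout.

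Stab1, the stabilin that also marks some tissue macrophages, was highest in the high-fat knockouts. It had 106.7, 97.1, 110.7 and 101.7 CPM in high-fat knockout livers, against 77.0, 94.8, 80.4 and 93.7 CPM in high-fat control livers. It had 52.7, 86.2, 93.4 and 84.8 CPM in chow knockout livers and 101.5, 89.2, 89.9 and 69.2 CPM in chow control livers. The high-fat knockouts lay above all high-fat controls and all chow knockouts but overlapped the chow controls, through chow control 1. Against high-fat controls the log2 fold change was 0.27 (SE 0.16, 95% interval -0.07 to 0.60, edgeR adjusted p = 0.333). Against chow knockouts it was 0.39 (SE 0.16, 95% interval 0.05 to 0.73, edgeR adjusted p = 0.118), so that neither difference passed the threshold of 0.05. Without chow knockout 1 the difference from chow knockouts was 0.25 (edgeR adjusted p = 0.235). With offsets for transcript length and GC content the differences from high-fat controls and from chow knockouts were -0.12 and 0.12, and with the unspliced share added to the model they were 0.30 and 0.43 (edgeR adjusted p = 0.762, 0.699, 0.756 and 0.208).

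Stab2, the stabilin that takes up hyaluronan, was on average higher on the high-fat diet in both genotypes, by less than the spread between livers. It had 133.8, 129.0, 147.4 and 153.7 CPM in high-fat knockout livers, against 123.6, 141.9, 139.2 and 140.0 CPM in high-fat control livers. It had 83.9, 134.0, 147.5 and 117.8 CPM in chow knockout livers, against 145.6, 113.9, 116.2 and 100.1 CPM in chow control livers. Each pair of groups overlapped. The log2 fold change of high-fat over chow was 0.22 in knockouts (SE 0.16, edgeR adjusted p = 0.368) and 0.20 in controls (SE 0.16, edgeR adjusted p = 0.583). Without chow knockout 1 the first of these was 0.09 (edgeR adjusted p = 0.703). The knockout effect was 0.05 on the high-fat diet and 0.02 on chow.

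Lyve1, the hyaluronan receptor, was the member with the lowest counts and, with Clec4g, the widest intervals. It had 16.01, 13.47, 9.434 and 10.99 CPM in high-fat knockout livers, against 18.86, 10.45, 13.88 and 8.549 CPM in high-fat control livers. It had 11.41, 14.63, 7.974 and 9.697 CPM in chow knockout livers, against 12.73, 7.768, 6.83 and 6.809 CPM in chow control livers. Chow control 1 stood above the other 3 of its group, and all groups overlapped. In controls the high-fat diet stood 0.60 above chow on the log2 scale (SE 0.27, 95% interval 0.04 to 1.17, edgeR adjusted p = 0.261), the largest value of any member in any of the comparisons. In knockouts the same contrast was 0.19 (edgeR adjusted p = 0.673), and the knockout effect on chow was 0.36 (SE 0.27, edgeR adjusted p = 0.673).

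Clec4g, the lectin LSECtin, and Fcgr2b, the Fc receptor, varied most widely among the high-fat controls. Clec4g had 34.6, 26.7, 45.8 and 44.2 CPM in high-fat knockout livers, against 32.0, 41.3, 72.4 and 51.4 CPM in high-fat control livers, where the value of 72.4 is that of high-fat control 3. Its log2 fold change was -0.38 (SE 0.27, 95% interval -0.95 to 0.18, edgeR adjusted p = 0.409), and the groups overlapped. Without high-fat control 3 it was -0.12 (edgeR adjusted p = 0.864). It averaged 43.5 ± 14.9 CPM in chow knockouts and 46.3 ± 10.8 CPM in chow controls. Fcgr2b averaged 33.6 ± 4.64 CPM in high-fat knockouts, 36.7 ± 10.04 CPM in high-fat controls, 38.6 ± 7.14 CPM in chow knockouts and 36.0 ± 4.02 CPM in chow controls. Its fold changes stayed between -0.20 and 0.10 on the log2 scale over the 4 comparisons between groups.

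Kdr, the VEGF-A receptor, and the junction genes Pecam1 and Cdh5 differed little between groups. Kdr averaged 87.4 ± 15.6 CPM in high-fat knockouts, 91.7 ± 17.1 CPM in high-fat controls, 94.1 ± 24.1 CPM in chow knockouts and 98.5 ± 9.77 CPM in chow controls. Pecam1 averaged 26.6 ± 3.65 CPM, 29.2 ± 3.17 CPM, 26.7 ± 6.72 CPM and 26.8 ± 1.66 CPM in the same groups. Cdh5 had 27.5, 38.0, 37.8 and 37.7 CPM in chow knockout livers, against 48.7, 38.9, 45.6 and 36.6 CPM in chow control livers. The knockout livers of Cdh5 were low as a group but overlapped the controls through chow control 4. The log2 fold change was -0.27 (SE 0.15, 95% interval -0.58 to 0.05, edgeR adjusted p = 0.573), the most negative of the 10 genes on chow. Without chow knockout 1 it was -0.16 (edgeR adjusted p = 0.841), and on the high-fat diet it was -0.06.

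Oit3 and Gpr182 complete the set. Oit3 averaged 35.1 ± 3.32 CPM in high-fat knockouts, 39.1 ± 7.05 CPM in high-fat controls, 38.8 ± 8.19 CPM in chow knockouts and 39.7 ± 5.97 CPM in chow controls. Gpr182 averaged 15.02 ± 2.62 CPM, 14.7 ± 2.13 CPM, 16.1 ± 2.39 CPM and 17.1 ± 3.68 CPM in the same groups. The largest of their differences was that of Gpr182 between high-fat and chow controls, at -0.22 on the log2 scale (SE 0.18, edgeR adjusted p = 0.600).

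Over the whole set, 0 of 10 genes changed in any of the 5 comparisons at an edgeR adjusted p under 0.05, and by DESeq2 and limma-voom the count was also 0. For knockout over control on chow, 0.0139% of all genes tested were called, the members' median log2 fold change was -0.05 and their range was -0.27 to 0.36. For knockout over control on the high-fat diet, 0.111% of genes were called, and the members' median was -0.07 with a range of -0.38 to 0.27. In controls the high-fat diet changed 1.83% of genes, and the members' median was 0.01 with a range of -0.22 to 0.60. In knockouts the high-fat diet changed 10.6% of genes, and the members' median was -0.06 with a range of -0.21 to 0.39. With shares this low over all genes, 0 of 10 is not a result about the members. The median over all genes tested was -0.01, 0.03, 0.01 and 0.02 in these comparisons, in the same order.

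The 95% intervals bound the size of change that the 4 livers a group leave possible. They reach from -0.95 to 1.17 over the members and the comparisons between groups, with the outer bounds set by Clec4g and Lyve1. For Stab2, the best counted member, the intervals between groups stayed within -0.31 and 0.55. The interaction, which asks whether the knockout effect differed between diets, called 0 of 10 members and 0% of all genes. Without adjustment, 11.3% of all genes and 0 of 10 members had p under 0.05 there, and DESeq2 called 71 genes. The largest interaction values were 0.41 for Stab1 (SE 0.23, edgeR adjusted p = 0.517) and -0.41 for Lyve1 (SE 0.38, edgeR adjusted p = 0.721).

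Before adjustment, 1 of 10 members had p under 0.05 for diet in controls (Lyve1), beside 17.1% of all genes. For diet in knockouts it was also 1 of 10 (Stab1), beside 28.8% of all genes. For the knockout effect it was 0 of 10 on the high-fat diet, beside 21.4%, and 0 of 10 on chow, beside 9.52%. Groups without overlap were found for Stab1 only, above on both of its contrasts, where 5.46% and 12.1% of all genes did so in the same direction.

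**Figure D2:**
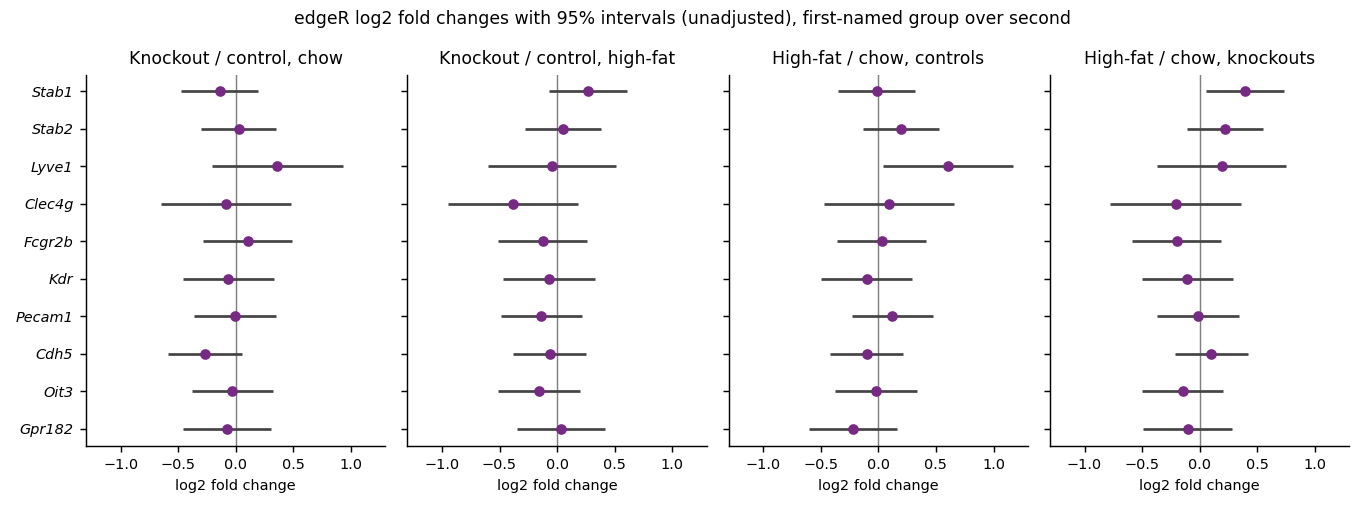
Log2 fold changes of the 10 genes (x axes) in the 4 comparisons between groups, first-named group over second, as points with unadjusted 95% intervals as bars. Only Lyve1 for diet in controls (0.60) and Stab1 for diet in knockouts (0.39) have intervals that leave out 0.

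The members moved together from liver to liver, apart from Lyve1. With each group's mean taken off, the median Pearson r over the 45 pairs of genes was 0.74 across the 16 livers, and 0.65 without high-fat control 3 and chow knockout 1. The closest pair was that of the stabilins, with r = 0.91, and the pair of Kdr and Clec4g had r = 0.90. Taken against the mean of the other 9, Stab2 followed most closely (r = 0.92, rho = 0.91) and r was between 0.76 and 0.88 for the other 8 genes apart from Lyve1. Without the 2 livers farthest from the median, r of the 9 genes other than Lyve1 lay between 0.67, for Oit3, and 0.86, for Stab2. The lowest of these 9 differed with the measure: Fcgr2b by r over all livers, Gpr182 by rho (0.60) and Oit3 without the farthest livers. The genes of a liver share the same library, with its preparation and depth, and these r are descriptions without a test.

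Lyve1 had r = -0.18 (rho = -0.12) with the mean of the other 9, and 0.10 without chow knockout 1 and high-fat control 1. Its r with each single member was between -0.45, for Kdr, and -0.03, for Oit3. Its highest r with any gene on the endothelial and other cell-type lists was 0.48, for the endothelial nitric oxide synthase Nos3. Lyve1 was lowest in chow control 4 and highest in high-fat control 1, at 18.9 CPM, the liver in which Fcgr2b was lowest of all 16. In that liver, the unspliced share was 0.164% and Malat1, a nuclear RNA, had 4028 CPM. Over the 16 livers, with group means taken off, Lyve1 had r = 0.16 with the log2 unspliced share and -0.40 with the log2 library total. With group means kept, these were 0.44 and -0.50. Clec4g, Fcgr2b and Cdh5 had r with the unspliced share of -0.54, -0.49 and -0.49 with group means kept. With group means taken off they had -0.59, -0.61 and -0.58. On that last scale, without the 2 livers farthest from the median share, they had -0.31, -0.04 and -0.33. The relation of Fcgr2b on that scale thus rests on those livers. The part of RNA quality in these patterns was not tested beyond these values.

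**Figure D3:**
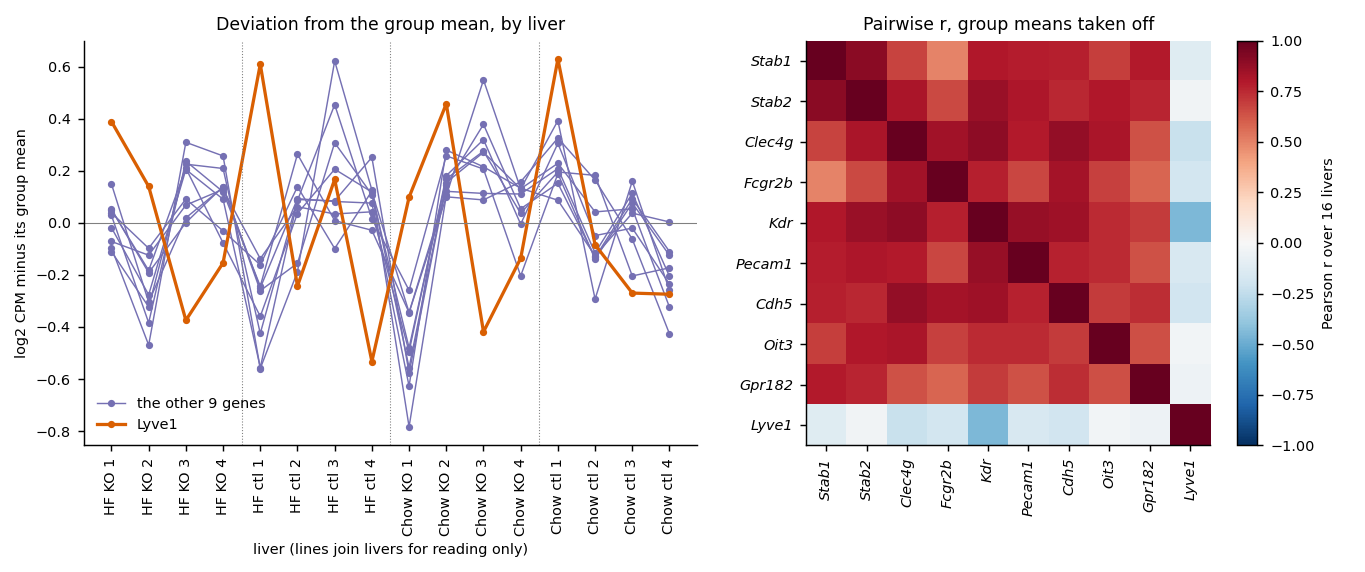
Left, log2 CPM minus the group mean (y axis) of the 10 genes in the 16 livers (x axis, by group), with Lyve1 drawn apart from the other 9. Right, Pearson r of each pair of genes over the 16 livers, group means taken off, as colour from -1 to 1. The 9 genes other than Lyve1 form a block of high r, and the row of Lyve1 stays between -0.45 and -0.03.

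The genes most like the members were looked for among 9581 others, by Pearson r with the members' mean after group means were taken off. The 10 nearest were Tspan7 (r = 0.96), Mrc1 (0.94), Pdcl (0.92), F8 (0.91), Fam118b (0.90), Cyp4b1 (0.89), Rnf2 (0.89), Lysmd3 (0.89), Zranb2 (0.88) and Dbnl (0.88). Tspan7, Mrc1, F8 and Cyp4b1 belong to a list of other sinusoidal genes: Mrc1 is the mannose receptor, and F8 is coagulation factor VIII, which the liver's endothelium makes. The middle candidate had r of 0.02, and 5 in 100 candidates had r above 0.62. When group means were kept, 4 of these 10 stayed among the nearest, and without high-fat control 3 and chow knockout 1 also 4.

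Within the set, the proportions of the members can be compared with the shared level taken out, by subtracting the mean log2 CPM of the other 9 from each gene. On this scale Stab1 stood at 1.54 ± 0.11 in high-fat knockouts, against 1.18 ± 0.21 in high-fat controls, with no overlap between the 4 and 4 livers. Chow knockouts stood at 1.10 ± 0.11 and chow controls at 1.24 ± 0.10, both also below every high-fat knockout. Cdh5 stood at -0.17 ± 0.10 in chow knockouts, against 0.09 ± 0.09 in chow controls, again without overlap. High-fat controls stood at -0.08 ± 0.10 for Cdh5, also below all chow controls. Oit3 stood at -0.20 ± 0.08 in high-fat knockouts, against -0.03 ± 0.06 in chow knockouts, without overlap. These relative levels were looked at for 10 genes in 4 comparisons and are given with no test. The share of all genes that would separate on such a scale was not worked out. On the plain CPM scale, 2.9 to 12.4% of all genes separated in a given direction, depending on the comparison. The separations above were looked for in both directions. The relative scale also holds no correction for transcript length or GC content. With such offsets, the plain log2 difference of Stab1 between high-fat knockouts and high-fat controls was -0.12.

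**Figure D4:**
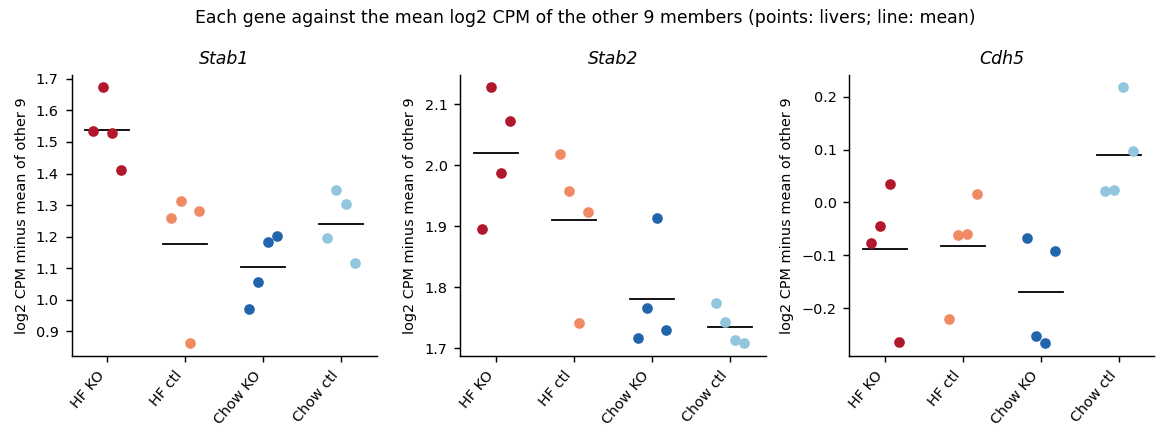
Log2 CPM minus the mean log2 CPM of the other 9 members (y axes) for Stab1, Stab2 and Cdh5 in the 4 groups, with a point for each liver and a line for the group mean. The high-fat knockouts of Stab1 lie above all other livers, and the chow controls of Cdh5 lie above the chow knockouts.

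Other genes of the sinusoidal endothelium were taken from a list of 36, of which 31 were tested. By edgeR 0 of 31 passed for the knockout on the high-fat diet, with 3 at an unadjusted p under 0.05 and a median log2 fold change of -0.13. On chow 0 of 31 passed, with 0 at an unadjusted p under 0.05, 0 by DESeq2 and a median of -0.11. The smallest p on the high-fat diet belonged to Aass, an enzyme of lysine breakdown that hepatocytes also make, and S1pr1, the endothelial receptor for sphingosine 1-phosphate. S1pr1 averaged 48.4 ± 4.24 CPM in high-fat knockouts and 78.3 ± 17.8 CPM in high-fat controls, at a log2 difference of -0.69 (SE 0.19, edgeR adjusted p = 0.0982). Aass averaged 348.3 ± 34.4 CPM in high-fat knockouts and 522.7 ± 80.0 CPM in high-fat controls, at a log2 difference of -0.59 (SE 0.16, edgeR adjusted p = 0.0982). For both genes the knockouts lay below all controls without overlap, as did 7.78% of all genes in that comparison. By DESeq2 2 of the listed genes fell, with Aass at an adjusted p of 0.0184 and S1pr1 at 0.0223. Over the other alternatives the adjusted p of Aass was 0.0356 to 0.514 and that of S1pr1 0.00808 to 0.471.

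For diet in knockouts, 2 of 31 of these genes rose, at a share of 5.21% of all genes called higher. Egfl7, a secreted endothelial protein, averaged 24.1 ± 2.42 CPM in high-fat knockouts and 13.2 ± 4.81 CPM in chow knockouts (0.86 on the log2 scale, SE 0.22, edgeR adjusted p = 0.0238). Ushbp1, a harmonin-binding protein, averaged 11.2 ± 1.41 CPM in high-fat knockouts and 5.89 ± 1.62 CPM in chow knockouts (0.92 on the log2 scale, SE 0.27, edgeR adjusted p = 0.0401). The list's median was -0.08. Neither call held without chow knockout 2 or without high-fat knockout 1, 2 or 4, where the adjusted p of Egfl7 was 0.0677, 0.0574, 0.0578 and 0.054. The call of Ushbp1 was also lost without chow knockout 1 or 4 or high-fat knockout 3, with an adjusted p of up to 0.0883, and with the unspliced share in the model (0.49, edgeR adjusted p = 0.368).

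Genes of portal, arterial and capillary-type vessels, as distinct from the sinusoid, were the vascular list with the most calls. For diet in knockouts 7 of 22 rose and 0 fell, with a median log2 fold change of 0.24, beside 5.21% of all genes called higher. Plvap, the protein of the diaphragms over capillary fenestrae, averaged 41.2 ± 5.20 CPM in high-fat knockouts and 27.7 ± 1.67 CPM in chow knockouts (0.57 on the log2 scale, SE 0.12, edgeR adjusted p = 0.00965). Cd36, a fatty acid carrier made by capillaries and also by hepatocytes and macrophages, averaged 148.4 ± 94.9 CPM in high-fat knockouts and 39.9 ± 9.89 CPM in chow knockouts (1.90 on the log2 scale, SE 0.43, edgeR adjusted p = 0.0127). The calls of Plvap and Cd36 held with each of the 16 livers left out in turn. For Cd36 the groups overlapped, and its edgeR adjusted p in these fits reached 0.0497, close to the threshold. The others that rose were Col4a2, Vwf, Col4a1, Entpd1 and Ly6a. Which cells in the whole tissue these RNAs came from was not tested. The count of 7 came to 2 without chow knockout 2, chow knockout 3 or high-fat knockout 1, and to 3 to 9 under the other alternatives. By edgeR 0 of 22 passed for the knockout on the high-fat diet, with 6 higher at an unadjusted p under 0.05, 1 higher by DESeq2 and a median of 0.22. On chow 0 of 22 passed, with 2 lower at an unadjusted p under 0.05, 0 by DESeq2 and a median of -0.18.

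In controls 1 of 22 of these vessel genes rose with the high-fat diet, beside 0.941% of all genes; it was again Cd36, at 213.5 ± 69.8 CPM in high-fat controls against 63.8 ± 27.1 CPM in chow controls (1.74 on the log2 scale, SE 0.43, edgeR adjusted p = 0.0448). That call was lost in 11 of the 16 fits with a liver left out, with an adjusted p of up to 0.124. Plvap did not pass there, with a log2 value of -0.04. The interaction of Plvap was 0.61 (SE 0.17, edgeR adjusted p = 0.244), so that its diet effect was not shown to differ between genotypes.

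Genes that signal to or within the endothelium gave 2 higher and 2 lower of 30 tested for diet in knockouts (5.21% and 5.35% of all genes), with a median of 0.14. Notch1, the receptor through which neighbouring endothelial cells signal, averaged 87.5 ± 21.7 CPM in high-fat knockouts and 41.1 ± 6.69 CPM in chow knockouts (1.09 on the log2 scale, SE 0.23, edgeR adjusted p = 0.00975). Bmp10, a ligand of the endothelial ALK1 receptor, averaged 5.12 ± 0.99 CPM in high-fat knockouts and 10.7 ± 0.55 CPM in chow knockouts (-1.07 on the log2 scale, SE 0.20, edgeR adjusted p = 0.00486). Both held with each liver left out. In the model with the unspliced share, which itself separates high-fat from chow knockouts, Notch1 had 0.55 (edgeR adjusted p = 0.133). Pdgfb rose (1.61, edgeR adjusted p = 0.0187) and Vegfb fell (-1.19, edgeR adjusted p = 0.0184), at levels of at most 7.44 CPM in either group's mean. Pdgfb did not pass without chow knockout 4 or high-fat knockout 2, nor Vegfb without chow knockout 4 or high-fat knockout 2 or 3, with adjusted p of up to 0.0652 and 0.0577. Neither Pdgfb nor Vegfb passed with the unspliced share in the model. By edgeR 0 of 30 passed for the knockout on either diet, with 3 on the high-fat diet and 2 on chow at an unadjusted p under 0.05, and DESeq2 called 1 and 0. Of 27 endothelial transcription factors, 0 passed by edgeR or DESeq2 for the knockout on either diet or for diet in knockouts, with 3, 2 and 4 at an unadjusted p under 0.05 on the high-fat diet, on chow and for diet in knockouts. For diet in knockouts, up to 2 of them were called higher with a liver left out. Under the other alternatives, up to 6 were called higher and up to 1 lower there.

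Genes by which endothelium recruits leukocytes gave 3 of 14 higher for diet in knockouts, beside 5.21% of all genes, with a median of 0.49. These were Icam1, the adhesion molecule for leukocyte integrins (0.72, edgeR adjusted p = 0.0428), Selplg, the selectin ligand carried by leukocytes (1.41, edgeR adjusted p = 0.0227), and Cxcl10, a chemokine for T cells (1.72, edgeR adjusted p = 0.0382). The count was 0 without chow knockout 2, high-fat knockout 2 or high-fat knockout 3. Cxcl10 did not pass with the unspliced share in the model. Central vein and lymphatic genes had calls close to the shares over all genes (5.21% higher, 5.35% lower). Central vein genes gave 1 of 10 higher (Vwf, also on the vessel list, 0.50, edgeR adjusted p = 0.0397). The call of Vwf was lost in 7 of 16 fits with a liver left out. It was also lost with no filter, with the unspliced share in the model and with length and GC offsets. Lymphatic genes gave 1 of 7 lower (Sema3d, -0.48, edgeR adjusted p = 0.0463, lost in 14 of 16 fits with a liver left out and with the unspliced share in the model). The lymphatic chemokine Ccl21a was at 0 in all 16 livers.

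Some markers of other cells moved in the same comparison. For diet in knockouts 5 of 19 stellate cell genes rose, beside 5.21% of all genes, among them the collagen chain Col1a1, at 48.2 ± 21.8 CPM in high-fat knockouts against 8.87 ± 1.57 CPM in chow knockouts (2.45 on the log2 scale, SE 0.35, edgeR adjusted p = 0.00129). The count of 5 came to 3 without chow knockout 2 or high-fat knockout 2. The stellate list as a whole did not shift alike: its median log2 fold change was 0.06, with 11 of 19 genes above 0. At an unadjusted p under 0.05, 5 of its genes were higher and 2 lower. Col1a1 also rose with the knockout on the high-fat diet, where 0.0627% of all genes were called higher, at 48.2 ± 21.8 CPM in knockouts against 8.08 ± 1.61 CPM in controls (2.57 on the log2 scale, SE 0.35, edgeR adjusted p = 0.00376). Col1a2 did so as well (1.59, edgeR adjusted p = 0.0257), a call lost without high-fat control 1, 2 or 4 or high-fat knockout 1 or 2. Fitted on only the 2 high-fat groups neither passed (Col1a1 2.58, edgeR adjusted p = 0.0853; Col1a2 1.59, edgeR adjusted p = 0.154), nor with the unspliced share in the model (edgeR adjusted p = 0.0535 and 0.103). Col1a2 was also lost without high-fat control 3 and chow knockout 1 (edgeR adjusted p = 0.0537) and with length and GC offsets (edgeR adjusted p = 0.109). Of 22 hepatocyte genes 8 fell for diet in knockouts, where 5.35% of all genes were called lower, with Alb at 49190 ± 7447 CPM in high-fat knockouts against 98430 ± 8539 CPM in chow knockouts. The summed CPM of the hepatocyte genes was 97360 to 122700 in high-fat knockouts, 126300 to 161300 in high-fat controls, 171000 to 199300 in chow knockouts and 157300 to 178600 in chow controls.

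Kupffer cell genes, which share the sinusoid and in part Stab1 and Fcgr2b, summed to 664.6 to 1050 CPM in high-fat knockouts, 606.9 to 1112 CPM in high-fat controls, 659.3 to 884.4 CPM in chow knockouts and 598.9 to 1302 CPM in chow controls. Of 15 tested, 1 rose for diet in knockouts, near the share of 5.21% over all genes (Cd68, 0.82, edgeR adjusted p = 0.0497, lost in 10 of 16 fits with a liver left out). Lymphocyte genes summed to 122.7 to 310.0 CPM in high-fat knockouts, 94.5 to 199.4 CPM in high-fat controls, 96.6 to 159.9 CPM in chow knockouts and 99.6 to 207.6 CPM in chow controls. Of 9 tested, 3 rose for diet in knockouts, beside the same 5.21%, and 0 did so without chow knockout 2, chow knockout 4 or high-fat knockout 3. The part of these cells in the levels of Stab1 or Fcgr2b was not tested.

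**Figure D5:**
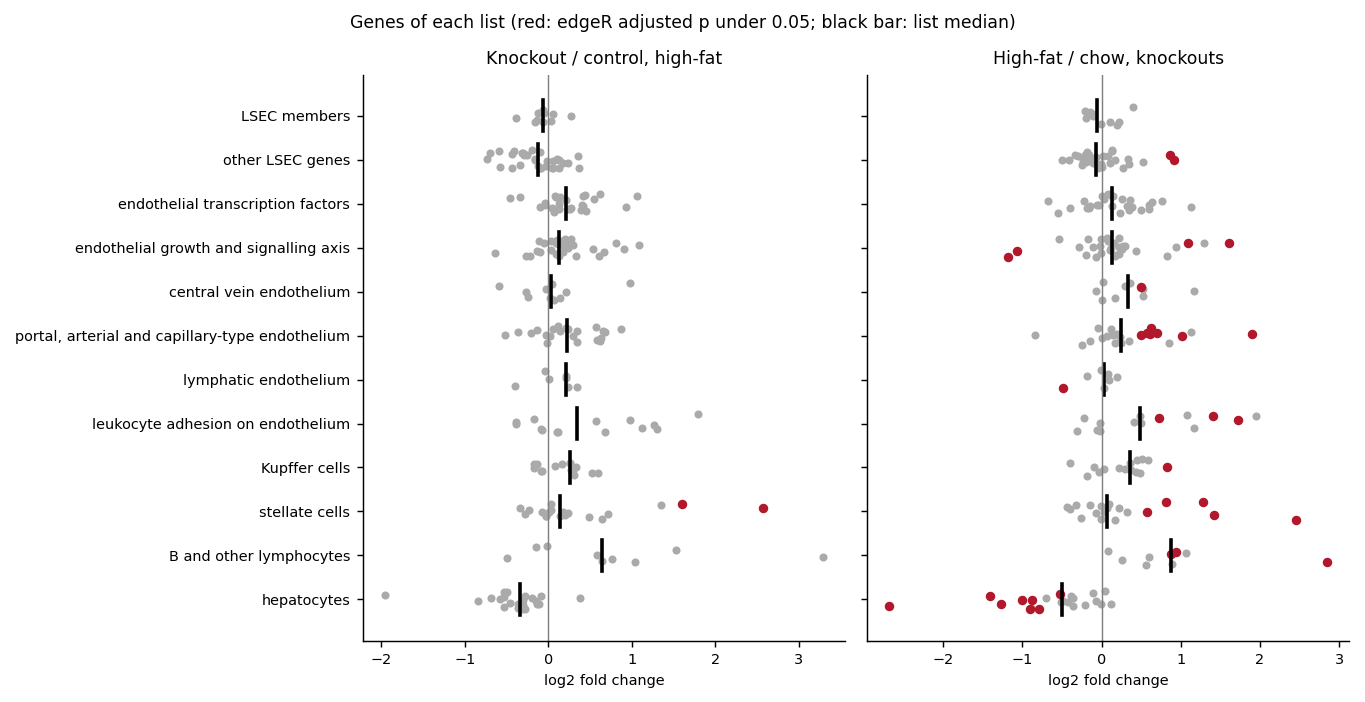
Log2 fold changes (x axes) of the genes on each list (rows) for knockout over control on the high-fat diet and for high-fat over chow in knockouts, with red points for an edgeR adjusted p under 0.05 and a black bar for the list median. The top row, the 10 sinusoidal members, holds no red point in either panel, and the row of portal, arterial and capillary-type genes holds 7 on the right.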

How the data were processed

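The authors deposited unnormalized read counts, 1 value per Ensembl identifier and liver: the values are whole numbers whose totals differ. RNA was extracted from tissue pieces and libraries were made with a stranded kit after ribosomal depletion, per the labels' protocols. The submitters' processing notes name GRCm38 as build and, with no role for each, STAR (2.5.4a), featureCounts (1.5.1) and DESeq2. Strand setting, treatment of multiply mapped reads and annotation release: not given in the sources used here. Symbols and exon lengths came from a GENCODE annotation of the same build (53620 of 53801 identifiers had a symbol), and 0 columns were left unmapped.

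Groups were taken from the titles. Nothing in the labels pairs the livers, and livers are numbered within a group in the order of their records. Each has its own animal number, and p-values measure the spread between these livers. The 24 pairs within groups had a chi-square per degree of freedom of 12.28 to 125.6, so that none agreed within sampling noise. Animal numbers were lower on the high-fat diet (61 to 92) than on chow (179 to 220) and were also separate by genotype within each diet, so any batch that follows them cannot be told apart from the groups.

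Genes were filtered with filterByExpr (minimum count 10) and scaled by TMM. edgeR (4.0.16, under R 4.3.3) fitted 1 term per group to the 16 livers, and its quasi-likelihood test was used with Benjamini-Hochberg adjustment over 14351 genes and a threshold of 0.05. Each SE is the size of the log2 fold change divided by the root of its F value. Correlations used log2 CPM with a prior count of 2. Intervals and the 3-count limit do not cover more than the spread between livers and counting error. Alternatives were DESeq2 1.42.0, limma-voom (limma 3.58.1) with and without quality weights, other scalings and filters, fits of only the groups compared, 2 covariate or offset models, removal of 2 libraries, and each liver left out in turn. Scaling by total counts alone, and r without the 2 farthest livers, were added after seeing the data. Genes like Lyve1 were also looked for after its values were seen.

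The members and gene lists were chosen with earlier results of these data known. The text names all members and, from each other list, genes past the test (up to 4 by smallest p) or the 2 with the smallest p. Some of these were left out for length. All that rose for diet in knockouts are named for the portal, arterial and capillary-type list. Genes most like the members needed a mean log2 CPM of at least 2. On simulated counts with 100 genes changed by 1 on the log2 scale, the knockout effect was recovered in 54 on chow and 51 on the high-fat diet, the diet effect in 60 in controls and 49 in knockouts, and the interaction in 23. The changed genes were drawn at random from all genes tested, whatever their level and spread. These counts therefore do not say what size of change would be found in the members.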

Additional observations from a re-analysis of the deposited data

Results flagged for a closer look

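Of 40 sets of 4 livers (10 genes in 4 groups), 5 held a liver far from the other 3 by Dixon's ratio of gap to range. Chance gives such a liver in about 1 of 20 independent sets. These sets share livers and most members vary together, so the count cannot be read as an excess over that rate. High-fat control 1 was low for Stab2, at 123.6 CPM, and for Pecam1, at 24.42 CPM. Chow knockout 1 was low for Cdh5, at 27.51 CPM, and for Gpr182, at 12.58 CPM. Chow control 1 was high for Lyve1, at 12.73 CPM.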

How the results depend on the processing

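No paired analysis was possible because the labels give each animal its own number and no number shared between groups. Of 590 fold changes of single members under the alternatives other than leaving out a liver, 559 kept their side of the threshold and either their direction or a value within 1 SE, 2 newly passed and 29 moved. Both new calls came with total counts in place of scaling factors: for diet in knockouts 2 members then passed (Stab1 0.72, edgeR adjusted p = 0.0121; Stab2 0.55, edgeR adjusted p = 0.0311), the members' median was 0.27, and in the interaction it was 0.15, while the median of all genes shifted by 0.34 and 0.22. With a liver left out, 0 members passed in any fit, and the medians ran from -0.11 to 0.12 for knockout on chow, -0.19 to 0.02 for knockout on the high-fat diet, -0.13 to 0.15 for diet in controls, -0.18 to 0.05 for diet in knockouts and -0.23 to 0.04 for the interaction. Counts of all genes called ran over the other alternatives from 0 to 308 (2 in the reported fit), 0 to 964 (16), 75 to 1219 (262), 873 to 4345 (1516) and 0 to 259 (0) in the same order, and with a liver left out from 0 to 4, 3 to 31, 100 to 955, 465 to 2914 and 0 to 1. The cause was not tested. The members had counts of 102 or more per liver. The parts of depth, scaling and the spread between livers in limiting their results were not tested.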
